A study of Mus musculus with 3 samples.

Results

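Arginine, nitric oxide and polyamine metabolism is described here through 7 genes: Nos2, Smox, Odc1, Sat1, Srm, Slc7a2 and Ass1. They are 7 of the 31011 mouse genes that were counted in each of 3 single-cell RNA libraries and are held by the GENCODE M21 annotation. They were chosen by values measured in these same libraries, among them the level of Nos2 in graft macrophages and the ratio of Smox between 2 cultures. Those values are therefore given as a description, and nothing is tested with them.

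The libraries hold 1 condition each. Co-Mac and VD-Mac are bone marrow cells of C57/BL6 mice, grown with murine GM-CSF for 7 days and then either left untreated or given 1 μM 1,25 dihydroxy-cholecalciferol (VD3, the active form of vitamin D) for 24 hours. The graft library (hSTSG) holds cells from human split-thickness skin that was carried for 14 days under the skin of C57BL6/J mice of wild type. It pools 5 mice, and no map from cells to mice was used, so nothing can be said of the spread between animals. Only mouse genes were counted, and RNA of the human skin has no value here.

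In background terms, arginine enters macrophages through cationic amino acid transporters and is then used by competing enzymes. Some cut it into urea and ornithine, from which polyamines and proline are made, while inducible nitric oxide synthase turns it into nitric oxide and citrulline, which can be rebuilt into arginine. Nos2 has long served as a mark of inflammatory macrophages in mice, and polyamines are known for their part in cell growth and in the clearance of dead cells by macrophages.

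Each UMI (unique molecular identifier) counts 1 captured RNA molecule. After cells with fewer than 300 genes, 100000 or more UMIs, or 10% or more mitochondrial UMIs were left out, Co-Mac kept 7257 of 7866 barcodes with 132574308 UMIs and a median of 15804 per cell. VD-Mac kept 8825 of 9794 with 116461484 UMIs and a median of 12089, and the graft 2144 of 2644 with 22646544 UMIs and a median of 6637.5. The libraries thus differ in depth per cell, and levels are given as CPM, the UMIs of a gene summed over cells and scaled to 1e6 UMIs in all, with exact 95% Poisson intervals. All intervals cover counting error only, since each condition has 1 library and the graft cells were not divided by mouse. Kept cells shared 15 barcodes between the cultures, 3 between Co-Mac and the graft, and 6 between VD-Mac and the graft. Leaving them out moved no value beyond its interval.

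The titles call both cultures macrophages, but their cells were of several kinds. Of 12 macrophage markers, 10 reached 10 CPM in each culture, led by C1qb, and all 12 reached it in the graft, led by Apoe. Summed over the markers this was 1128 CPM in Co-Mac, 1498 CPM in VD-Mac and 8689 CPM in the graft. Clusters made without these genes or other genes of the pathway placed 14.5% of Co-Mac and 12.6% of VD-Mac cells in a macrophage-like class. Larger shares were dendritic cell-like, 37.4% and 35.2%, with granulocyte-like, cycling, and mast cell or basophil-like cells beside them. Clusters that no marker set named held 4.29% of Co-Mac and 8.95% of VD-Mac cells.

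In the graft, 526 cells (24.5%) were macrophage-like, 516 granulocyte-like, 301 T cell-like, 143 fibroblast-like and 80 dendritic cell-like. A further 459 cells formed a cluster led by Spint1, Hbb-bs and Ms4a4c, called the Spint1 cluster here. It carried the monocyte markers Plac8 (1062 CPM), Ccr2 (245.8 CPM) and Ly6c2 (142.5 CPM), yet none of them was among its 10 leading genes. Clusters of under 50 cells (B lineage, endothelial, mast cell or basophil-like) and an unnamed cluster of 37 cells are left out of the class comparisons.

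Among the enzymes that consume arginine, Nos2, the inducible nitric oxide synthase, was at 0.0754 CPM (0.0362–0.139) in Co-Mac, 0.0859 (0.0412–0.158) in VD-Mac and 24.5 (22.5–26.6) in the graft. It was highest in the graft and close to nothing in both cultures, with 10 UMIs in 4 Co-Mac cells and 10 in 2 VD-Mac cells. The graft differs from the cultures in tissue, animals and preparation at once, and these cannot be told apart.

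For supply of arginine, Slc7a2, a cationic amino acid transporter, was at 49.9 CPM (48.7–51.1) in Co-Mac, 4.47 (4.09–4.87) in VD-Mac and 251.1 (244.6–257.7) in the graft. Ass1, which joins citrulline and aspartate on the way back to arginine, ran the other way between culture and graft. Its level was 394.6 CPM (391.2–398.0) in Co-Mac, 138.6 (136.5–140.8) in VD-Mac and 76.6 (73.0–80.3) in the graft.

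On the polyamine side, Odc1, which makes putrescine from ornithine, was at 125.9 CPM in Co-Mac, 83.0 in VD-Mac and 790.1 in the graft. Srm, which makes spermidine from putrescine, was at 63.0, 36.5 and 24.5 CPM, and so was lowest in the graft. Smox, which oxidises spermine back to spermidine, was at 15.2 CPM (14.5–15.8), 80.5 (78.8–82.1) and 154.5 (149.5–159.8), with no overlap between any pair of libraries. Sat1, which acetylates spermidine and spermine for export or breakdown, was at 288.4, 294.4 and 465.3 CPM, the narrowest range of the polyamine genes as a fold.

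Nos2 was not a gene of macrophages alone. Its level was 41.3 CPM (35.0–48.5) in fibroblast-like cells and 36.8 (33.0–40.9) in macrophage-like cells, and these intervals overlap. Granulocyte-like cells followed with 12.1 CPM (7.16–19.1) and the Spint1 cluster with 9.46 (6.63–13.1), again overlapping. T cell-like cells had 4 UMIs (2.12 CPM), and dendritic cell-like cells had 0, with an interval that reaches 3.50 CPM.

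**Figure D1:**
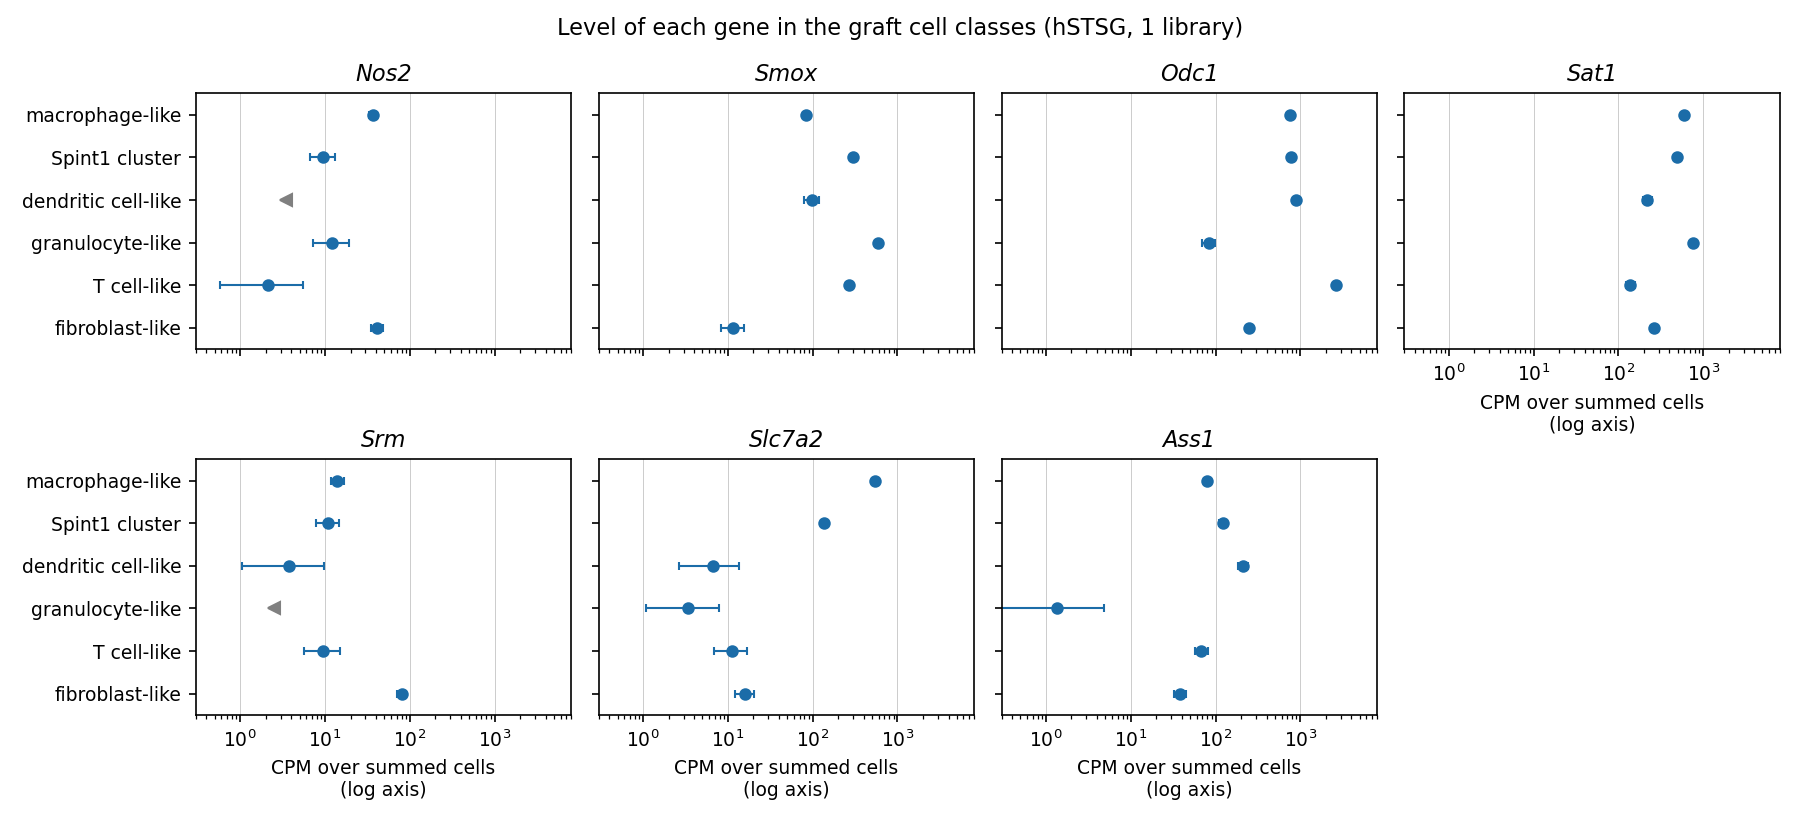
Level of each of the 7 genes in 6 cell classes of the graft library, in CPM over summed cells on a log axis, with bars for the exact 95% Poisson interval; grey triangles mark the upper end of the interval where the count was 0. Slc7a2 was highest in macrophage-like cells, Smox in granulocyte-like cells, Odc1 in T cell-like cells, and Srm in fibroblast-like cells.

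A second clustering of macrophage-like, Spint1 cluster and dendritic cell-like cells divided the graft macrophages. A sub-cluster with the Trem2 macrophage markers held 326 cells and was led by Spp1 and Gpnmb. Among those with the Cd163 markers, 1 was led by Cd163 and Ch25h (122 cells) and another by C6 and Lyve1 (64 cells). A monocyte-like sub-cluster was led by Plac8 and Ly6c2 (314 cells, 302 of them from the Spint1 cluster). Beside these stood an unnamed sub-cluster of 157 cells with a median of only 1822 UMIs, and 2 dendritic cell-like sub-clusters.

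Nos2 followed the Trem2 side of this division. The Trem2 sub-cluster had 50.9 CPM (45.5–56.8) and 87.7% of the Nos2 UMIs of all re-clustered cells, against 9.25 (5.39–14.8) in the Cd163 and Ch25h sub-cluster and 3.61 (1.86–6.30) in the monocyte-like one. Of the 327 Nos2 UMIs of the Trem2 sub-cluster, 211 lay in 10 cells. The unnamed sub-cluster was at 36.6 CPM (21.3–58.6), on 17 UMIs. In the C6 and Lyve1 sub-cluster no Nos2 UMI was found, and the interval reaches 4.31 CPM. The size of the Trem2 value depends on the clustering: at resolution 0.8 that name covered only 175 cells, at 94.4 CPM, beside an unnamed sub-cluster of 155 cells led by Gdf15 and Pf4.

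How many single macrophages carry Nos2 was read after each cell was thinned to 2000 UMIs, which left out 17 shallower macrophage-like cells. Of the 509 remaining, 24 had a Nos2 UMI (4.72%, exact binomial interval 3.04–6.94), and without thinning 61 of 526 did (11.6%). Fibroblast-like cells, at 5 of 141 (3.55%, 1.16–8.08), overlapped with this share. As background, 0 of 295 T cell-like cells had Nos2 after the same thinning, with an interval up to 1.24%; median depths before it were 14260.5 UMIs for macrophage-like and 5552 for T cell-like cells. In the Trem2 sub-cluster 7.41% (4.80–10.8) of 324 thinned cells had Nos2, against 0.833% (0.0211–4.56) of 120 in the Cd163 and Ch25h sub-cluster and 0 of 58 in the C6 and Lyve1 sub-cluster.

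**Figure D2:**
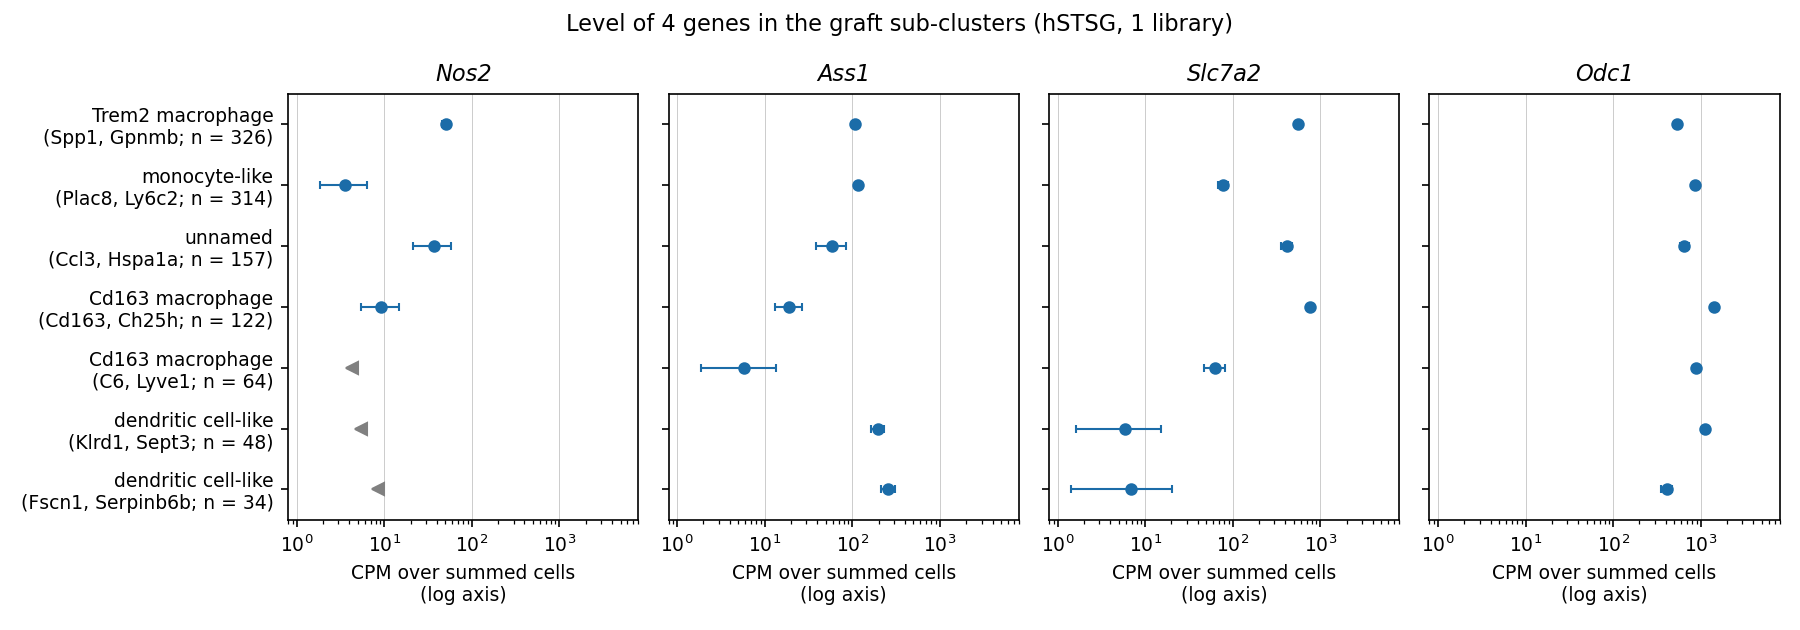
Level of Nos2, Ass1, Slc7a2 and Odc1 in the 7 sub-clusters of the second clustering of graft cells, in CPM over summed cells on a log axis, with bars for the exact 95% Poisson interval; grey triangles mark the upper end of the interval where the count was 0. Each sub-cluster is given with its first 2 leading genes and its cells (n). Nos2 was highest in the Trem2 sub-cluster, Slc7a2 and Odc1 in the Cd163 and Ch25h sub-cluster.

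Nos2 was concentrated in few cells. Of its 337 UMIs in the 526 macrophage-like cells, 62.6% lay in 10 cells and 78 in a single one, so that 6 cells held 50% of them. Grouping the cells by Nos2, a description chosen after seeing the data, gave 465 cells without it, 28 with 1 UMI and 33 with 2 or more. Of these 33 cells, 31 belonged to the Trem2 sub-cluster, as did 266 of the 465 without Nos2 and 316 of all 526, and their median depth of 14554 UMIs was near the 14086 of cells without Nos2. Removing the cells that scored highest as doublets took away none of the 33 cells.

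Slc7a2, the transporter, was mainly a gene of macrophages. Macrophage-like cells had 544.0 CPM (529.0–559.4) and 87.7% of its graft UMIs, the Spint1 cluster 135.9 (124.4–148.1), and each other class of 50 or more cells 15.9 CPM or less. Among sub-clusters it was at 764.5 CPM (725.1–805.6) in the Cd163 and Ch25h group, 559.2 (541.1–577.8) in the Trem2 group and 63.2 (47.4–82.4) in the C6 and Lyve1 group. Over the 526 macrophage-like cells the Pearson correlation of log-normalised values with Nos2 was 0.229 for Slc7a2 and 0.227 for Ass1. These cells share 1 library and differ in depth.

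Ass1 was placed differently from the transporter. It was highest in dendritic cell-like cells with 209.8 CPM (183.0–239.3), followed by the Spint1 cluster with 121.2 (110.4–132.8), macrophage-like cells with 78.7 (73.0–84.6) and T cell-like cells with 67.8 (56.5–80.6), the last pair overlapping. Fibroblast-like cells had 38.3 CPM and granulocyte-like cells 1.34, on 2 UMIs. Within macrophages Ass1 went with Nos2: the Trem2 sub-cluster had 108.9 CPM (100.9–117.2), against 19.1 (13.3–26.5) and 5.85 (1.90–13.7) in the Cd163 sub-clusters, which do not overlap with it.

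Odc1, the first enzyme of polyamine synthesis, was highest in T cell-like cells at 2669 CPM (2595–2743). Of the clusters in that class, the one led by Il17a and Trdc had 3844 CPM and the one led by Nkg7 and Cd28 had 1956. Dendritic cell-like cells (890.4), the Spint1 cluster (771.0) and macrophage-like cells (764.1) lay close together as classes, the last pair with overlapping intervals, although the dendritic cell-like sub-clusters were at 1135 CPM (1056–1218) and 409.1 (351.4–473.7), and fibroblast-like cells had 247.9 CPM and granulocyte-like cells 83.9. Among macrophages the Cd163 and Ch25h sub-cluster had 1410 CPM (1357–1466) of Odc1, the C6 and Lyve1 sub-cluster 881.9 (820.0–947.1) and the Trem2 sub-cluster 533.4 (515.7–551.5). The Trem2 sub-cluster, highest of these 3 in Nos2 and Ass1, was thus lowest in Odc1, but between the Cd163 sub-clusters all 3 genes were higher in the one led by Cd163 and Ch25h, with overlapping Ass1 intervals. Over the 526 macrophage-like cells the correlation of Odc1 with Nos2 was only −0.087.

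Srm and Smox had opposite extremes in the graft among classes of 50 or more cells. Between these, the Spint1 cluster, T cell-like and dendritic cell-like cells came in the same order for both genes, with overlapping Srm intervals. Srm was highest in fibroblast-like cells with 79.9 CPM (71.0–89.6), at 14.0 CPM or less in the other 5 classes of 50 or more cells, and at 0 UMIs in granulocyte-like cells, with an interval up to 2.48 CPM. A B lineage cluster of only 43 cells had 59.5 CPM (44.6–77.8), which overlaps with fibroblast-like cells. Smox was highest in granulocyte-like cells with 588.4 CPM (550.1–628.6), then in the Spint1 cluster with 298.9 (281.8–316.8) and T cell-like cells with 266.9 (244.1–291.3), and lowest in fibroblast-like cells with 11.5. Macrophage-like cells, with 83.6 CPM (77.8–89.7), overlapped with dendritic cell-like cells at 97.8 (79.8–118.6). The T cell-like value came largely from the Il17a cluster, at 545.7 CPM against 97.8 in the other. The granulocyte-like class was uneven as well, with 730.4 CPM (681.7–781.6) in a cluster of 476 cells and 116.1 (82.9–158.1) in one of 40 cells, which is below the Spint1 cluster. Among macrophage sub-clusters Smox hardly varied, from 80.0 to 84.1 CPM with overlapping intervals, while the monocyte-like sub-cluster had 316.2 (297.3–335.9).

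Sat1 was at 764.1 CPM (720.4–809.8) in granulocyte-like cells, 599.4 (583.6–615.4) in macrophage-like cells and 494.0 (471.9–516.8) in the Spint1 cluster. Fibroblast-, dendritic cell- and T cell-like cells had 261.3, 220.2 and 138.7 CPM. Among classes of 50 or more cells, granulocyte-like cells thus had the highest values of Smox and Sat1, both genes of polyamine breakdown. They also had the lowest values of Odc1, Srm and Ass1, with a Srm interval that overlaps with dendritic cell-like cells. Among sub-clusters, however, Sat1 reached 764.9 CPM (707.4–825.9) in the C6 and Lyve1 group and 856.9 (774.7–945.3) in the unnamed one. Each other sub-cluster was at 611.1 CPM or less.

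The 2 cultures ask what VD3 does to these genes, and Smox beside the other polyamine enzymes in particular. A gene counted as changed when its ratio reached 2-fold in either direction and 1 of the cultures held it at 10 CPM or above. Smox had 15.2 CPM in Co-Mac and 80.5 in VD-Mac, a log2 ratio of 2.41 (2.34 to 2.48) or 5.30-fold, and 99.75% of the 7732 genes that passed the level filter lay at or below it. Going down, Slc7a2 went from 49.9 to 4.47 CPM, 11.2-fold lower at a log2 ratio of −3.48 (−3.61 to −3.35), and Ass1 from 394.6 to 138.6 CPM, 2.85-fold lower at −1.51 (−1.53 to −1.48).

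The remaining polyamine genes changed less than 2-fold. Odc1 had a log2 ratio of −0.60 (−0.64 to −0.56) and Srm of −0.79 (−0.84 to −0.74), both lower with VD3 under every scaling tried. Sat1 was at 0.03 (0.01 to 0.05), and its sign depended on scaling. It was 0.08 with median-of-ratios size factors and 0.12 with TMM factors, but −0.07 as a mean over cells. With each cell class given the same share in both cultures, Sat1 was at −0.11. Nos2 (0.19, −1.23 to 1.61) was under the level filter.

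Of the 7 genes, 6 passed the filter, and 3 of these changed, 1 higher and 2 lower. Across all genes that passed, 6.79% changed, 2.16% higher and 4.63% lower. Since the 7 were chosen with these values known, nothing is read from that count. Both size factor alternatives shifted all ratios by less than 0.1 on the log2 scale. Smox ranged from 2.19 to 2.49 over all alternatives, Slc7a2 from −3.74 to −3.34 and Ass1 from −1.57 to −1.31.

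Within macrophage-like cells (1049 in Co-Mac, 1116 in VD-Mac), Smox was at 20.3 CPM (18.5–22.2) against 131.6 (126.5–136.8), which makes a log2 ratio of 2.70 (2.56 to 2.84). Slc7a2 had 120.9 and 13.4 CPM (−3.17, −3.36 to −2.99), and Ass1 682.6 and 127.5 CPM (−2.42, −2.48 to −2.36). Smox and Ass1 thus had larger ratios here than over all cells, while Odc1 (−0.18) and Srm (−0.07) lay nearer to 0 and Sat1 was at 0.11. In this class 3 of the 6 genes that passed changed, where 10.3% of all genes did. Nos2 had 0 UMIs in the Co-Mac class and 9 in the VD-Mac class, all in 1 of its 1116 cells.

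The macrophage-like cells of each culture came from different clusters, 1 holding all 1049 in Co-Mac and another 1112 of the 1116 in VD-Mac, and they differed in macrophage markers. Ms4a7 was at 2.52 CPM in Co-Mac and 134.5 in VD-Mac, Trem2 at 276.6 and 753.5, Adgre1 at 45.6 and 116.0, while Mrc1 fell from 169.7 to 43.0 and Cd68 from 208.5 to 112.8. Apoe was at 13.4 CPM in VD-Mac (254 UMIs, against 304 in Co-Mac) and at 6358 CPM in the macrophage-like cells of the graft. The part of these differences in the ratios of the 7 genes was not tested.

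**Figure D3:**
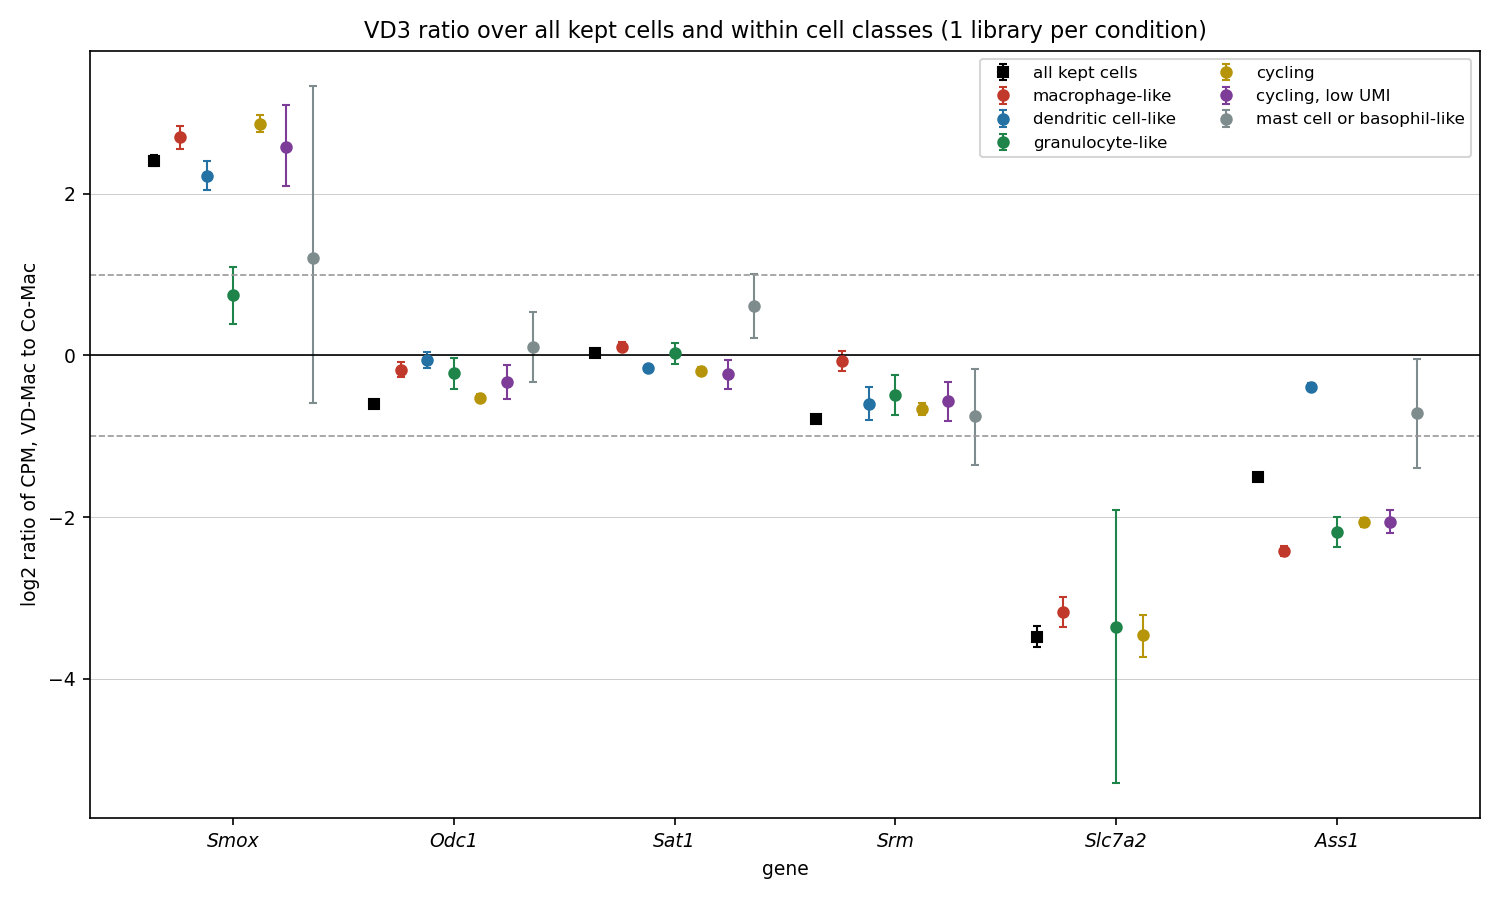
Log2 ratio of VD-Mac to Co-Mac CPM for 6 genes, over all kept cells (black squares) and within cell classes (coloured points), with exact 95% intervals for counting error; dashed lines mark 2-fold. Points are shown where the gene reached 10 CPM in either culture, and Nos2 never did. Smox lies above 0 in every class, Slc7a2 and Ass1 below 0, and Sat1 on both sides.

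Other culture classes showed the Smox difference too, at various sizes. Cycling cells had 17.6 and 128.6 CPM of Smox (log2 ratio 2.87, 2.76 to 2.97), cycling cells of low UMI count 21.2 and 126.6 (2.58), and dendritic cell-like cells 7.45 and 34.8 (2.23, 2.05 to 2.41). Granulocyte-like cells were at 27.1 against 45.3 CPM, with a log2 ratio of 0.74 (0.39 to 1.10) that is under 2-fold. Mast cell or basophil-like cells had 4 and 10 Smox UMIs, a log2 ratio of 1.21 (−0.58 to 3.34) whose interval holds no change.

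The share of genes that changed gives the background for each class. Changed were 3 of the 6 genes that passed in cycling cells (7.67% of all genes), 2 of 5 in cycling cells of low UMI count (12.4%), 1 of 5 in dendritic cell-like cells (4.74%), 2 of 6 in granulocyte-like cells (4.05%) and 1 of 5 in mast cell or basophil-like cells (15.6%), the last being Smox on its 4 and 10 UMIs. In dendritic cell-like cells the gene was Smox, and Ass1 there had a log2 ratio of −0.39 (211.9 and 161.8 CPM). In the small dendritic cell-like cluster held by both cultures (76 and 117 cells), Ass1 went from 123.7 to 47.5 CPM. Slc7a2 in dendritic cell-like cells was under the level filter, at 9.32 and 1.03 CPM (−3.18). In granulocyte-like cells the pair was Slc7a2 (49 and 4 UMIs) and Ass1 (−2.18). Except in granulocyte-, mast cell or basophil-like cells, each class was drawn mainly from different clusters in the 2 cultures. The largest unnamed cluster of VD-Mac (610 cells, led by Aldh1a2) had 65.5 CPM of Smox, and that of Co-Mac (238 cells, led by Inhba) had 18.0. With the Aldh1a2 cluster counted as dendritic cell-like, an alternative added later, the Smox ratio there was 2.51 and that of Odc1 went from −0.06 to 0.19.

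Over single macrophage-like cells of the cultures, Smox was spread widely. In VD-Mac its quartiles were 57.8, 116.7 and 191.4 CPM, 241 cells held 50% of 2502 UMIs, and the 10 highest cells held 4.60%. In Co-Mac the median cell had 0 and the upper quartile was 38.9 CPM. After thinning to 2000 UMIs, 44 of 1049 Co-Mac cells (4.19%, 3.06–5.59) and 244 of 1116 VD-Mac cells (21.9%, 19.5–24.4) had a Smox UMI, where 33.3% and 82.2% had one before thinning, at median depths of 20346 and 15154.5 UMIs. For background, the lowest thinned shares in classes of the same libraries were 1.66% in dendritic cell-like cells of Co-Mac and 2.86% (2 of 70) in mast cell or basophil-like cells of VD-Mac. Within macrophage-like cells Smox was thus found in more cells with VD3, while the thinned share went from 2.75% to 22.1% in cycling cells, from 1.66% to 5.74% in dendritic cell-like cells and from 4.85% to 7.58% in granulocyte-like cells.

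Other genes of the pathway were followed as a list of 41 by role. Of the 27 that passed the level filter, 0 were 2-fold higher and 2 were 2-fold lower, 7.41% against 6.79% of all genes, and their median log2 ratio was −0.32 against −0.10 for all genes. Those 2 were Gatm, which makes guanidinoacetate for creatine from arginine (40.0 and 17.5 CPM, −1.19), and Mtap, which salvages the methylthioadenosine left by polyamine synthesis (21.2 and 9.85 CPM, −1.11). Just short of 2-fold came Slc7a1, another cationic amino acid transporter (22.5 and 11.3 CPM, fold 0.501), singled out after its value was seen. By level the list was led by Eif5a, whose hypusine is made from spermidine (799.7 and 416.7 CPM, −0.94), and Oaz1, the antizyme that lowers ornithine decarboxylase (777.9 and 794.1 CPM, 0.03).

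Slc3a2 (155.2 and 117.1 CPM), Pts (70.2 and 103.3), Qdpr (88.4 and 70.9), Oat (66.7 and 55.0), Spr (62.1 and 62.8) and Nostrin (49.2 and 57.6) completed the 8 highest. They serve amino acid transport, tetrahydrobiopterin supply, ornithine breakdown and the trafficking of nitric oxide synthase, and none reached 2-fold. The cofactor genes Pts, Spr, Qdpr and Gch1 all passed the filter, although Nos2 itself, which needs tetrahydrobiopterin, did not. Within polyamine synthesis and breakdown, 3 of 5 listed genes passed, of which 0 were higher by 2-fold and 1, Mtap, was lower, where 2.16% and 4.63% of all genes were.

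The genes most like Nos2 over the 526 graft macrophage-like cells, by Pearson correlation of log-normalised values among 2853 genes with at least 50 CPM, were Tnfrsf9 (0.503), Isg15 (0.477), AW112010 (0.477), Mmp12 (0.381) and Ero1l (0.373). With 0 Nos2 UMIs in 465 of these cells and 62.6% of its UMIs in 10, these values rest on few cells. For Smox over the 1116 VD-Mac macrophage-like cells, Higd1a, Rbfa, Txn1, Slc20a1 and Prdx5 came first with correlations of 0.119 or less, which is too weak to single any of them out.

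Over 23 cell classes and sub-clusters (10 of the graft, 6 of Co-Mac and 7 of VD-Mac), likeness was measured on log2 CPM with 5 added, among 6359 genes. Nos2 was matched most closely by Ctsk (0.927), Ptgfrn (0.862), Vasn (0.852), Cd276 (0.850) and Ahnak2 (0.843), and Smox by Jdp2 (0.843), Rilpl2 (0.840), Slc15a3 (0.819), Tatdn2 (0.811) and Irak2 (0.810). Classes of 1 library share its depth and free RNA, and graft classes and sub-clusters share cells, so these points are not independent. Nos2 was at 0.473 CPM or less in every culture class. Its correlations thus rest on the difference between graft and cultures and on differences among graft points.

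In the genome the 7 genes lie apart from each other. The labels name the build mm9, but 99.86% of the gene IDs in the files, 31011, were found in GENCODE M21, and positions are given on its build, GRCm38. Nos2 (ENSMUSG00000020826) lies at chr11:78920787-78960254 and Smox (ENSMUSG00000027333) at chr2:131491496-131525922, both on the plus strand. No other annotated gene overlaps these 2. Ass1 shares chromosome 2 with Smox, and Srm, Slc7a2, Odc1 and Sat1 lie on chromosomes 4, 8, 12 and X.

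RefSeq promoter windows (GRCm38.p6, 250 bases before the RefSeq start) were matched for 4 of the 7 genes, Smox, Odc1, Sat1 and Ass1, and not for Nos2, Srm and Slc7a2. The RefSeq starts of Smox, Odc1 and Ass1 lie downstream of the GENCODE gene starts, so that the whole window of Smox and the ends of those of Odc1 and Ass1 fall inside the GENCODE genes. They were searched on both strands for the letters of half-sites of the vitamin D receptor (RGKTCA, where R is A or G and K is G or T), for pairs of these in the same direction with 3 bases between, and for CACGTG, the E-box. Of 32851 such windows in the table, 38.6% hold a half-site, 0.0396% a pair and 6.02% the E-box. GGGTCA was found in Sat1 at base −212 from the start and in Ass1 at −231, where CACGTG was found at −36 as well, past the GENCODE start of Ass1. No pair was found, and Smox and Odc1 held none of these letters in their windows. GC content was 68% for Smox, 80% for Odc1, 59.6% for Sat1 and 75.6% for Ass1.

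The windows of Smox and Ass1 are shown because these genes moved in opposite directions with VD3. Only the longest stretch outside every GENCODE exon is printed, 5′ to 3′: 110 bases of Smox at chr2:131491654-131491763 (+), inside the GENCODE gene, and 187 bases of Ass1 at chr2:31470020-31470206 (+), which ends before the E-box. Capitals mark the half-site letters.
Smox: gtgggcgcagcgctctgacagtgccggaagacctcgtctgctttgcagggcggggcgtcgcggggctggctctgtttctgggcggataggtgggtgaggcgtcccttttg
Ass1: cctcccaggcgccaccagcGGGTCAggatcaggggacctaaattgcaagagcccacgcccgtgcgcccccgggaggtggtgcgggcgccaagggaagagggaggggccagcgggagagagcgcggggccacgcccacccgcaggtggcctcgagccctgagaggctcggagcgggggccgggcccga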

How the data were processed

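The authors deposited raw UMI counts per mouse gene and barcode from Cell Ranger 3.1.0, not normalised and not filtered on cell quality; the submitters' notes name Seurat 3.1.1. The genes, the marker sets and the pathway list were chosen with earlier results of these data known. Cells were filtered as given above. Clustering used Seurat 5.3.0 (R 4.3.3, Matrix 1.6.5) with log normalisation to 10000, 2000 variable genes without members or pathway genes, 15 principal components, 15 neighbours and resolution 0.5, on the merged cultures, on the graft and on its monocyte-lineage cells.

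Clusters took the name of a marker set with a mean log2 ratio of at least 0.25 and at least 3 markers detected in 25% of cells, weighed with its markers among the 10 leading genes. This rule was settled, and loosened, after the clusters were seen. The granulocyte precursor-like name (39 and 96 culture cells, not compared) depends on it, as does the entry of the Spint1 cluster, which passed as monocyte-like, into the second clustering.

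Doublets were kept. Scrublet (scanpy 1.11.5) called 1, 0 and 9 cells in Co-Mac, VD-Mac and hSTSG at its automatic threshold, under 0.5% and so without use, and an alternative removed the 421, 623 and 37 highest scores. Ratios carry exact conditional binomial intervals and shares exact Clopper-Pearson intervals. With 1 library per condition there is no test. Thinning was 1 seeded draw per group.

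Named genes are the 7 reported members (2 more of the list are not reported here), pathway genes changed 2-fold with at least 10 CPM or among the 8 highest, and the 5 genes most correlated with Nos2 and Smox across classes and across cells. Alternatives covered cell filters, doublets, size factors (median-of-ratios; TMM of edgeR 4.0.16), mean over cells, class make-up, clustering, level filter and thinning. The ratio was also run on simulated counts with known folds. These held counting error only and no spread between libraries or cells, so the run cannot show how such spread would change the ratios. Python 3.11.15, numpy 2.4.6, scipy 1.17.1, pandas 2.3.3, anndata 0.12.19 and matplotlib 3.10.9 were used. Hashtag antibody counts were left out of all totals and not used to divide cells.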

Additional observations from a re-analysis of the deposited data

Results flagged for a closer look

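The graft library held 1195935 UMIs of hashtag antibodies, features beside the genes that no comparison here uses, where both cultures had 0. They are reported as a count, and no cell was assigned to an animal by them.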

How the results depend on the processing

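Over 554 alternatives of 135 results, 408 values stayed, 146 moved and 0 changed counted results reversed direction. A count of genes stayed if it was within 1.5-fold of its main value, and any other value if it was within its interval. The Nos2 level in the graft was 22.9 CPM with no cell filter, 28.4 with a mitochondrial limit of 5% and 24.7 with doublets removed. The log2 ratio of Smox was 2.19 with that mitochondrial limit, 2.49 with TMM factors and 2.33 with equal make-up of cell classes. Raising the level filter to 50 CPM left 2 of the reported members changed and 0 of the pathway list, since fewer genes pass it, against 7.61% of all genes. A threshold of 1.5-fold gave 5 of the 6 members that passed, against 18.7% of all genes; without a filter 4 pathway genes were past 2-fold, 10.5% against 18.0% of all genes. Nos2 in graft macrophage-like cells was 36.6 CPM at resolution 0.8 and 38.3 with 30 principal components, and in the Trem2 sub-cluster 94.4 at resolution 0.8. The share of macrophage-like cells with Nos2 was 2.88% after thinning to 1000 UMIs and 11.6% without thinning, as depth limits what is detected. The cause of the other shifts was not tested. No paired analysis was possible because each condition has 1 library and the mice of the cultures and of the graft are not matched.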
